A study of Homo sapiens and Homo sapiens
Mus musculus and Mus musculus with 200 samples.

Results

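The comparison set the MSX1FNV line against the unedited parent (WT) before any degradation of the tagged factor, using the chromatin mark H3K27ac in human cranial neural crest cells. Its members were the 2 MSX1FNV libraries and the 2 WT libraries labelled 0 h, 4 of the 36 H3K27ac libraries and of 200 samples in the series. The cells were made in culture from H9, an established human embryonic stem cell line, and the series compares lines in which a neural crest transcription factor can be removed with the degrader dTAGV-1 (500 nM). In MSX1FNV the homeodomain factor MSX1 carries a V5-containing tag, and both replicates bear the same clone label, c93/69. WT carries no tag and no clone label. Both groups are labelled dTAGV-1 at 0 h, so the tagged factor had not been depleted, and both were immunoprecipitated with the same H3K27ac antibody. The WT libraries held chromatin of the mouse line O9-1 as a spike-in and the MSX1FNV libraries did not. Tag, clone, spike-in and culture batch therefore follow the same split as the line and cannot be told apart. The labels do not say that the replicates came from separate differentiations, so the p-values measure the spread between these libraries only.

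H3K27ac is an acetyl mark on histone H3 that is found at active promoters and enhancers, and its level at an open region is read as a measure of that region's activity. Cranial neural crest cells migrate from the dorsal neural tube and form much of the facial skeleton and connective tissue. TWIST1, a bHLH factor that binds E-boxes, and homeodomain factors such as MSX1, ALX1, ALX4 and PRRX1, which bind TAATTA-like sites, act at many enhancers of these cells.

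Counts had been made over 213151 merged ATAC peaks, and 107765 of them held enough counts to be tested. The total count was 5564593 and 8398853 in MSX1FNV and 8651976 and 7080398 in WT. Crest identity was checked at start sites: in MSX1FNV and WT respectively, TFAP2A stood at 84.2 and 96.2 against 102 and 98.8 CPM (the count over the TMM-scaled library total), and SOX9 at 78.1 and 80.7 against 105 and 98.8 CPM. SOX10, a marker of early migrating crest, stayed at or under 2.53 CPM in all 4 libraries. Start-site peaks of a list of 20 crest transcription factors summed to 614 and 648 CPM in MSX1FNV and 770 and 793 CPM in WT. The crest sum was thus lower in both MSX1FNV libraries. Of that list PAX3, PAX7, MYCN and TFAP2B were called lower and ZIC1 higher, as given below. No start-site peak was listed for the stem cell factors POU5F1 and NANOG, so their level was not measured. The other 11 of 13 stem cell markers had such a peak. These summed to 364 and 412 CPM in MSX1FNV and 387 and 388 CPM in WT.

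At a false discovery rate (FDR) of 0.05 in edgeR's quasi-likelihood test, 2260 peaks (2.10% of those tested) were higher in MSX1FNV and 3661 (3.40%) were lower. In every called peak both MSX1FNV libraries lay outside the range of the WT libraries, which was also true of 53848 of all 107765 tested peaks. The median size of the difference was 1.52 on the log2 scale among higher peaks and 1.18 among lower peaks. Differences above 2-fold were seen in 1862 higher and 2288 lower peaks, and above 4-fold in 478 and 487. The lower peaks included regulators of crest and limb mesenchyme (PAX3, PAX7, ALX1, SHOX2, TBX2), and the higher peaks included ZIC1, ZIC5, PRRX1, TBX18 and ID1. One library decided how many peaks were called: without WT replicate 2 there were 44 higher and 174 lower calls. There were 2883 and 5518 without MSX1FNV replicate 1, 1093 and 3349 without MSX1FNV replicate 2, and 1469 and 2317 without WT replicate 1. None of the 5921 calls that were tested again changed sign when a library was left out, for which groups that do not overlap leave little room. Up to 33 of them, without MSX1FNV replicate 2, were not tested again. Scaling by library size alone, under which the median of all tested peaks was 0.12 on the log2 scale, gave 3022 higher and 2446 lower calls, so 44.7% of calls were lower in place of 61.8%.

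**Figure D1:**
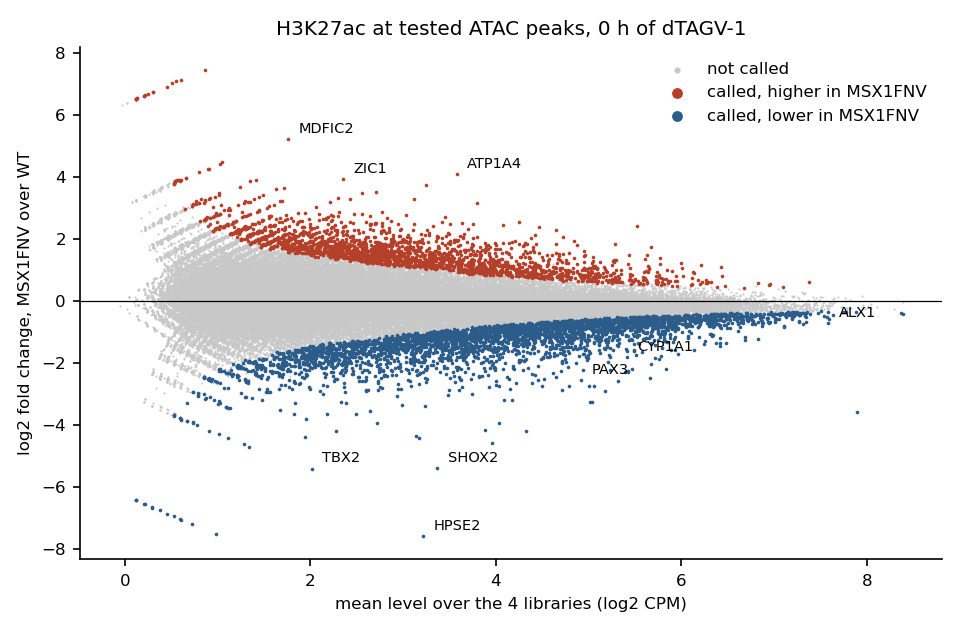
Each point is a tested peak, placed by its mean level over the 4 libraries (log2 CPM, x axis) and its log2 fold change of MSX1FNV over WT at 0 h (y axis), with called peaks in red (2260, higher) and blue (3661, lower). Called lower peaks lie at higher levels than called higher peaks, with a median level of 4.08 against 2.90 log2 CPM.

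The central windows of 3 peaks per direction are shown, since these open regions were among those that differed most between the lines. Peaks with an annotated UTR in the window, such as that of TBX2, were passed over. Sequences are from the plus strand of hg38. Capitals mark E-boxes (CANNTG), homeodomain sites (TAATTA or TAATTG) and AP2 sites (GCCNNNGGC), found on both strands. The first 3 peaks were higher in MSX1FNV and the last 3 lower.
MDFIC2 intron, chr3:70224457-70224657: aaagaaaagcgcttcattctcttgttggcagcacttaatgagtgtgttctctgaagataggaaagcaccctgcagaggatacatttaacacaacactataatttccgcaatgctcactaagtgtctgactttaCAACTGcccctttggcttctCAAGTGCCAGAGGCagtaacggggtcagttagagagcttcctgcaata
ATP1A4 intron, chr1:160169337-160169537: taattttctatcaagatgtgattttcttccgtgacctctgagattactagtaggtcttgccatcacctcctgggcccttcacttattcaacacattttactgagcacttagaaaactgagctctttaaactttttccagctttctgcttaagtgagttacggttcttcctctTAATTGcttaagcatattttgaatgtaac
ZIC1 coding exon, chr3:147410195-147410395: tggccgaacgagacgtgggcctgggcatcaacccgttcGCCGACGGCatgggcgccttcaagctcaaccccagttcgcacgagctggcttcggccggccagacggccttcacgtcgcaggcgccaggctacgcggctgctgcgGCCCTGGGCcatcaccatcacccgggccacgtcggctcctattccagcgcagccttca
HPSE2 intron, chr10:99234312-99234512: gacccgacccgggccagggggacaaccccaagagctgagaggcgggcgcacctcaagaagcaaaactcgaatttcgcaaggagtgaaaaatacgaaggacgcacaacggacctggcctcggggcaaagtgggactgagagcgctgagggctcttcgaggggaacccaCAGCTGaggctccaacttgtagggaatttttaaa
SHOX2 exon, chr3:158103363-158103563: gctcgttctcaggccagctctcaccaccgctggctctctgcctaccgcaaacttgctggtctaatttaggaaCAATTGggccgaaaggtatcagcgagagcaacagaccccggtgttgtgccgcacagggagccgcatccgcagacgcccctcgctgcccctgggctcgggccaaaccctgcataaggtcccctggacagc
TTC34 upstream region, chr1:2855977-2856177: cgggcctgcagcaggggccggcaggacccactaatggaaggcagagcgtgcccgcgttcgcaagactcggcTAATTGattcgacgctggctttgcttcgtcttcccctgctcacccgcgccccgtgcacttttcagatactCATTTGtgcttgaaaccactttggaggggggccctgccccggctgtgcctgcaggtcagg
An E-box was found in 4 of these windows, a homeodomain site in 2 and an AP2 site in 2. Over central windows of the same length in all tested peaks, 69.8% held CANNTG, against 66.8% of higher and 72.4% of lower peaks. TAATTA was found in 5.57% of all tested peaks, 6.28% of higher and 7.18% of lower peaks, TAATTG in 8.02%, 6.28% and 10.4%, and GCCNNNGGC in 13.4%, 10.6% and 12.5%. The composite motif, which joins an E-box and a homeodomain site, was rare: it was in 0.281% of all tested peaks, 0.133% of higher peaks and 0.30% of lower peaks. Among TWIST1-bound peaks it was in 0.692% of all tested and 0.368% of the lower ones.

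The named peaks with the largest losses included elements at HPSE2, TBX2, SHOX2 and ZNF502. The intronic peak of HPSE2, which encodes a heparanase-like protein, 1390 bp downstream of its start site (chr10:99233923-99234900), held 0 and 1 counts in MSX1FNV and 146 and 106 in WT. That is 242-fold lower, with an exact 95% interval for counting error of 43.0 to 9589, and edgeR's FDR was 6.43e-07. Most counts were even, so each read pair may have been counted as 2, and the interval would then be wider. A peak in a coding exon of TBX2, a T-box repressor of limb and heart development (chr17:61405018-61405518), held 2 and 0 counts against 56 and 46, 48.9-fold lower (13.2 to 410), and its fitted log2 fold change of -5.42 was -8.75 without MSX1FNV replicate 1 and -4.26 without replicate 2. A peak at the start site of ZNF502, a zinc finger gene (chr3:44712400-44712900), held 2 and 2 counts against 53 and 42, 22.8-fold lower (8.61 to 85.4). HPSE2 was -7.59 on the fitted log2 scale and -9.87 without MSX1FNV replicate 2. Every MSX1FNV library lay under 3 counts in these peaks and every WT library far above.

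SHOX2, a homeobox gene of limb, palate and heart development, was low over its whole neighbourhood. At its start-site peak (chr3:158105081-158106018) MSX1FNV stood at 1.81 and 1.91 CPM and WT at 30.3 and 28.0 CPM, a log2 fold change of -3.94 (SE 0.29, FDR 4.75e-07). An exonic peak 2255 bp downstream (chr3:158103070-158103855) stood at 0.362 and 0.477 against 16.8 and 21.3 CPM, -5.40 on the log2 scale (SE 0.43, FDR 8.69e-07). The start-site peak also lies at a start of RSRC1, so the mark cannot be assigned to 1 of the 2 genes. At TBX2 the start-site peak (chr17:61398975-61400205) stood at 1.08 and 1.19 against 32.1 and 24.5 CPM, -4.59 on the log2 scale (SE 0.33, FDR 4.15e-07). Both start sites thus kept almost no H3K27ac in either MSX1FNV library and had it in both WT libraries.

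The other peaks with the largest losses were TTC34 (-4.44), CYP1B1 (-4.21), CABCOCO1 (-3.96), DNAJC15 (-3.82), ZNF677 (-3.67) and MAGI1 (-3.65, all log2 fold changes). The TTC34 peak also differed between replicates of another line, at 75.5 and 0 CPM in ALX1FV. It stood at 15.3 and 35.6 CPM in ALX1FV ALX4- and 0.296 and 0.487 CPM in TWIST1FV. CYP1B1 encodes a cytochrome P450 that is also expressed in periocular mesenchyme. At the CYP1B1 peak the MSX1FNV libraries stood at 0.362 and 0.477 CPM and the WT libraries at 9.52 and 7.05 CPM. This peak lies 440 bp upstream of a start site, where another CYP1B1 peak had a higher mean level. Values of that other peak are not reported here. DNAJC15 and ZNF677 were called at their start sites, as was SH2D4A (1.45 and 0.477 against 8.02 and 5.52 CPM, -2.91, SE 0.51). Of the 10 lower peaks of this kind, 7 were still called without WT replicate 2, the exceptions being DNAJC15, ZNF677 and MAGI1. Leaving out single MSX1FNV libraries moved the fitted value from -3.18 to -4.68 at DNAJC15, from -3.01 to -4.52 at MAGI1 and from -2.27 to -3.81 at SH2D4A, and to -4.96 at CABCOCO1 without replicate 2.

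Among the named peaks the largest gain was 5.21 and the largest loss -7.59 on the log2 scale, while over all called peaks the largest sizes were 7.43 and 7.59. At the start-site peak of ZIC1, a zinc finger factor of the neural plate border (chr3:147409601-147410988), MSX1FNV stood at 3.25 and 13.5 CPM and WT at 0 and 1.23 CPM. Its log2 fold change was 3.92 (SE 0.75, FDR 0.00371), 2.42 without MSX1FNV replicate 2 (FDR 0.13) 2.80 without WT replicate 1 and 4.53 without MSX1FNV replicate 1. The call was lost without WT replicate 2 (8.98, FDR 0.084) and in DESeq2 (FDR 0.38). ZIC5, a related factor, stood at 9.22 and 14.1 against 2.13 and 3.52 CPM at its start site (2.09, SE 0.37, FDR 0.00193). Both MSX1FNV libraries were above both WT libraries at each gene.

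At UNC5C, a netrin receptor, the start-site peak stood at 10.8 and 35.4 against 2.13 and 3.37 CPM (3.14, SE 0.44, FDR 3.05e-04), and at 1.94 without MSX1FNV replicate 2. ENPP2, which encodes the enzyme autotaxin, stood at 12.7 and 18.4 against 3.01 and 4.60 CPM (2.07, SE 0.32). NPTX2, a neuronal pentraxin, stood at 8.32 and 17.8 against 2.88 and 4.29 CPM (1.92, SE 0.38). The call at NPTX2 was lost without MSX1FNV replicate 2 (1.17). MSX1FNV replicate 2 was above replicate 1 in all these start-site peaks, and the groups did not overlap in any. ZIC5, UNC5C, ENPP2 and NPTX2 were not called without WT replicate 2.

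Away from start sites, the intronic ATP1A4 peak (chr1:160168938-160169936) stood at 14.1 and 27.9 CPM in MSX1FNV and 0.752 and 1.84 CPM in WT (4.09, SE 0.42, FDR 1.63e-05). An intergenic peak whose nearest start is that of MARCKS, 264855 bp away, stood at 12.7 and 20.3 against 0.752 and 1.84 CPM (3.73, SE 0.41). The intronic MDFIC2 peak held 10 and 77 counts against 0 and 2, 45.3-fold higher (12.2 to 380). Other gains named by size were at MTIF3 (3.49), KCNU1 (3.48), NSG2 (3.30), B3GAT1 (3.29), HS3ST4 (3.28) and ZFYVE28 (3.18). Without WT replicate 2, ATP1A4 (4.77), MARCKS (4.41), MTIF3 (5.35) and HS3ST4 were still called. MDFIC2 (8.39), KCNU1, NSG2, B3GAT1 and ZFYVE28 were not. In DESeq2 MTIF3 and NSG2 were not called, and MDFIC2 had no adjusted p-value and so no call. The MDFIC2 peak did not hold enough counts to be tested without MSX1FNV replicate 2, the library with 77 of its counts. Without MSX1FNV replicate 2 the values fell by over 1.5 times at ATP1A4 (3.42), MTIF3 (2.80), B3GAT1 (2.67) and ZFYVE28 (2.53), and at NSG2 (1.93) the call was lost. Without WT replicate 1 the value was 4.64 at NSG2, 2.53 at B3GAT1, 2.58 at MTIF3 and 4.15 at MDFIC2. Without MSX1FNV replicate 1, MDFIC2 was at 5.88.

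At start sites as a whole, 13120 genes had a tested peak, of which 77 (0.587%) were higher and 484 (3.69%) lower, with a median log2 fold change of -0.16. The median was -0.04 with an offset for GC content and peak width. At MSX1 itself the start-site peak (chr4:4859361-4860362) stood at 28.0 and 34.2 CPM in MSX1FNV and 45.7 and 32.6 CPM in WT. The groups overlapped, and the difference of -0.32 (SE 0.18, FDR 0.369) was not called. It was 0.01 with the GC and width offset. Around MSX1, 37 peaks were tested, of which 6 were lower and 1 higher, beside 3.40% and 2.10% of all tested peaks.

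Leaving out WT replicate 2 ended most calls of this kind: of 27 named start-site peaks of the gene lists that follow, TBX2, SHOX2, PAX3 and ID1 were still called. Of 20 crest transcription factors, 17 were tested, with 1 higher (ZIC1) and 4 lower (PAX3, PAX7, MYCN, TFAP2B) and a median of -0.28. PAX3, a paired-box factor of the dorsal neural tube and crest, stood at 6.51 and 9.77 CPM in MSX1FNV and 51.6 and 48.1 CPM in WT, -2.57 on the log2 scale (SE 0.21, FDR 1.07e-06). PAX7, its paralogue, stood at 5.06 and 3.34 against 17.4 and 19.2 CPM (-2.14, SE 0.29, FDR 2.27e-04). Both MSX1FNV libraries lay far under both WT libraries at these genes. MYCN stood at 52.1 and 45.8 against 72.2 and 79.2 CPM (-0.62, FDR 0.00949) and TFAP2B at 39.6 and 36.8 against 57.5 and 55.6 CPM (-0.56, FDR 0.0276). TFAP2A, SNAI2, NR2F1 and TWIST1 were not called at their start sites, with log2 fold changes of -0.14, -0.30, 0.14 and 0.50.

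Of 22 facial and limb homeobox factors, 13 were tested, with 1 higher (PRRX1) and 3 lower, ALX1 and SHOX2 among them, and a median of -0.26. The medians of these 2 lists were 0.02 and 0.01 with the GC and width offset. ALX1, needed for the frontonasal skeleton, stood at 133 and 145 against 224 and 243 CPM (-0.74, SE 0.10, FDR 2.32e-04). ALX4, a related factor, stood at 244 and 200 against 284 and 249 CPM (-0.26, FDR 0.156). PRRX1, a mesenchymal homeobox factor, was higher, at 47.2 and 56.7 against 30.6 and 33.7 CPM (0.71, SE 0.16, FDR 0.0116). The groups did not overlap at any of these genes, ALX4 included, which missed the threshold. PRRX1 was lost without MSX1FNV replicate 2 (0.50) or WT replicate 1 (0.62).

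Of 9 tested FOX and TBX mesenchymal factors, TBX18 was higher and TBX2, FOXP1 and FOXC1 were lower, with a median of -0.24. FOXP1 stood at 9.40 and 9.30 against 24.8 and 26.0 CPM (-1.43, SE 0.22, FDR 7.03e-04). FOXC1, a forkhead factor of the periocular and skull mesenchyme, stood at 15.9 and 16.2 against 30.8 and 26.7 CPM (-0.83, FDR 0.0165), and was not called with the GC and width offset (-0.47) or without WT replicate 1 (-0.74). TBX18 stood at 16.4 and 15.9 against 6.01 and 10.4 CPM (1.00, FDR 0.0425), a call that was lost without WT replicate 1 (0.62) or MSX1FNV replicate 2 (0.97) and in DESeq2. The groups did not overlap at any of these genes.

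Of 11 tested bHLH partners and ID inhibitors, ID1 was higher and TCF3, TCF4 and HEY2 were lower. ID proteins bind the E proteins TCF3, TCF4 and TCF12, which pair with TWIST1. ID1 stood at 57.5 and 93.2 CPM in MSX1FNV and 16.9 and 42.9 CPM in WT (1.37, SE 0.28, FDR 0.00548), and at 2.14 without WT replicate 2, but was not called in DESeq2 (FDR 0.29). TCF4 stood at 42.1 and 36.4 against 64.7 and 54.9 CPM (-0.60) and TCF3 at 60.2 and 54.7 against 84.3 and 78.6 CPM (-0.50). Both were lost under library-size scaling, with the loess offset and without WT replicate 1, and TCF3 also with the GC and width offset and without MSX1FNV replicate 2. TCF12 was not called (-0.06). HEY2, a target of Notch signalling, stood at 5.42 and 6.91 against 13.5 and 15.0 CPM (-1.18, FDR 0.0169).

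**Figure D2:**
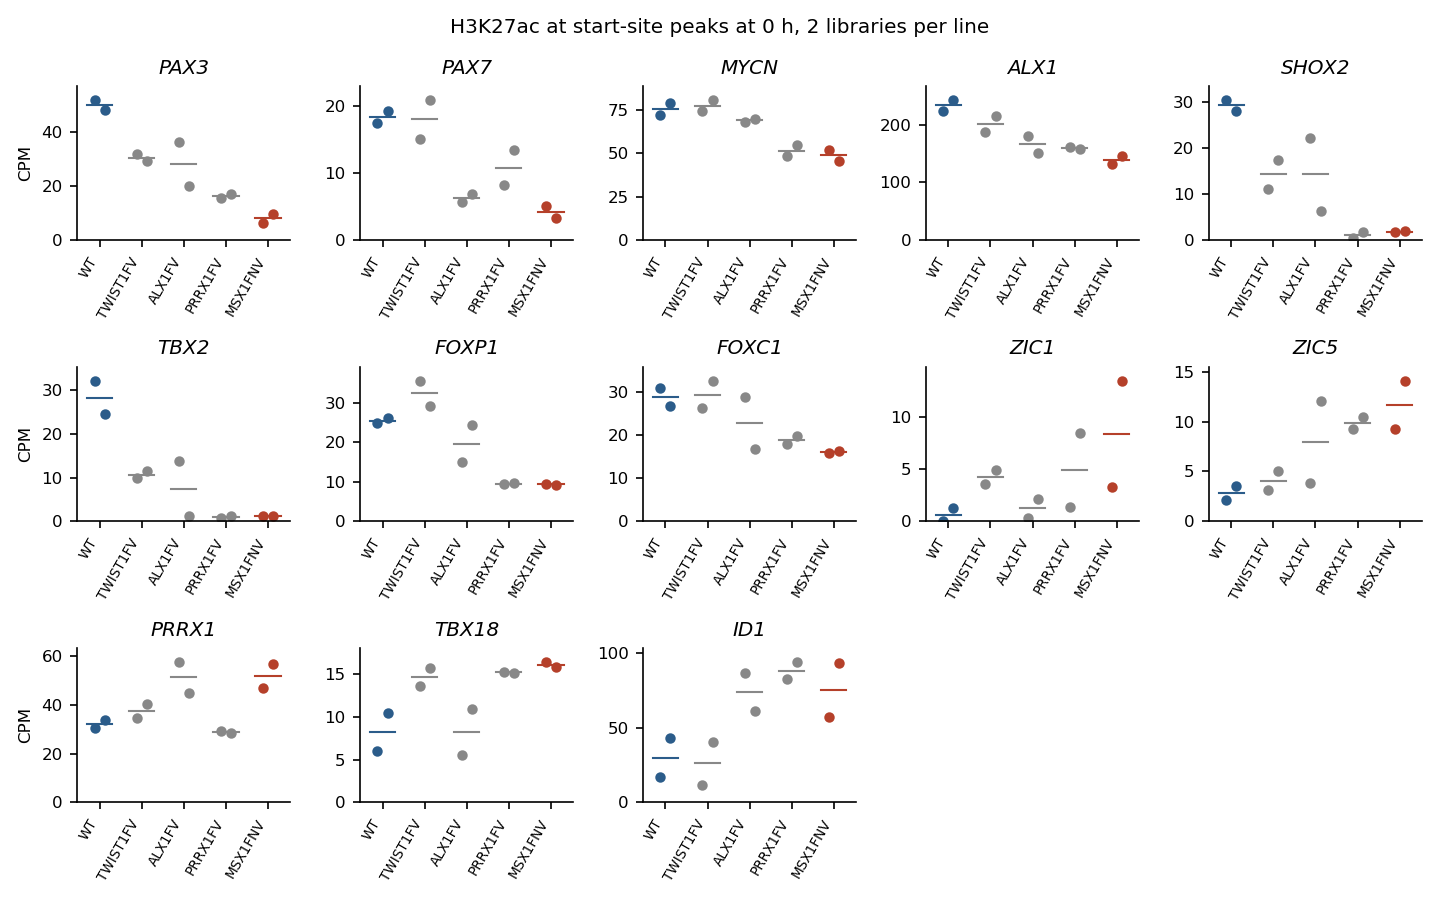
H3K27ac (CPM, y axis) at the start-site peaks of 13 regulators at 0 h in 5 lines (x axis), with 1 point per library and the mean of the 2 as a line. MSX1FNV is red, WT blue and 3 other tagged lines grey. PAX3 is at 51.6 and 48.1 CPM in WT and at 6.51 and 9.77 CPM in MSX1FNV, and PRRX1FV lies near MSX1FNV at SHOX2, TBX2 and FOXP1.

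Among signalling genes few start sites were called by edgeR, all of them lower. No start site was higher in this fit, while with the GC and width offset 1 FGF start site was called higher. Without that offset 1 of the FGF and 1 of the retinoic acid list were higher at an unadjusted p under 0.05, and DESeq2 called 2 BMP, 2 FGF, 2 retinoic acid and 1 WNT gene in all. In the BMP pathway 2 of 21 were lower: the ligand BMP7 (57.7 and 53.4 against 96.1 and 80.6 CPM, -0.66, FDR 0.00521) and the receptor BMPR1B (28.6 and 24.3 against 56.6 and 47.7 CPM, -0.98, FDR 0.00128). In the FGF pathway 2 of 18 were lower: the ligand FGF2 (10.8 and 10.7 against 32.7 and 23.9 CPM, -1.39, FDR 9.87e-04) and the feedback inhibitor SPRY1 (82.2 and 89.9 against 138.2 and 145 CPM, -0.71). In the retinoic acid pathway 2 of 14 were lower: the binding protein CRABP1 (10.3 and 8.82 against 25.7 and 27.4 CPM, -1.47) and the receptor RARB (19.5 and 14.3 against 33.8 and 27.9 CPM, -0.88). In the WNT pathway 1 of 24 was lower, the ligand WNT5A (35.4 and 33.3 against 51.1 and 50.7 CPM, -0.56, FDR 0.0325), a call lost under library-size scaling. The medians of the BMP, FGF, retinoic acid and WNT lists were -0.17, -0.31, -0.31 and -0.20, beside -0.16 for all start sites. With the GC and width offset the BMP and WNT medians turned to 0.02 and 0.01, beside -0.04 for all. Without WT replicate 1, BMP7 (-0.55), RARB (-0.75) and WNT5A (-0.58) were not called, nor were RARB (-0.71) and WNT5A (-0.57) without MSX1FNV replicate 2.

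Of 27 tested collagen and matrix genes, LUM and LOXL1 were lower and none higher, with a median of -0.34. LUM, which encodes the proteoglycan lumican, stood at 31.5 and 32.7 against 54.1 and 55.0 CPM (-0.76), and LOXL1, a collagen and elastin crosslinker, at 9.76 and 8.82 against 19.8 and 16.5 CPM (-0.97). Neither was called with the GC and width offset, and LOXL1 was also lost without WT replicate 1 (-0.85) or MSX1FNV replicate 2 (-0.95). At an unadjusted p under 0.05 the list held 13 lower and 0 higher genes, beside 15.5% lower and 2.36% higher over all start sites, and DESeq2 called 2. Of 17 tested imprinted genes, PEG10 and SGCE, which share 1 peak, were lower (32.5 and 35.8 against 60.0 and 63.3 CPM, -0.84, FDR 0.0020). None of 38 HOX genes had a peak with enough counts, and their start-site peaks summed to between 6.33 and 7.99 CPM in the 4 libraries.

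Start-site peaks of markers of other cell types had summed levels of the same order in both lines. They summed to 16.4 and 15.0 CPM in MSX1FNV and 21.4 and 16.9 CPM in WT for neurons, 31.1 and 36.4 against 30.2 and 36.5 CPM for epithelium, and 70.0 and 81.4 against 66.5 and 82.3 CPM for smooth muscle. Glia and melanocyte markers summed to 57.5 and 52.9 against 55.1 and 58.8 CPM, endothelial and blood markers to 36.2 and 39.5 against 37.2 and 38 CPM, and endoderm and mesoderm markers to 17.9 and 20.9 against 23.6 and 19.9 CPM. Chondrocyte and bone markers summed to 193 and 187 against 196 and 225 CPM, and stem cell markers, most of it LIN28A, LIN28B and SALL4, to 364 and 412 against 387 and 388 CPM. The sums of the neuron and chondrocyte lists were lower in both MSX1FNV libraries than in both WT libraries, and those of the other 6 lists overlapped. Among the neuron markers STMN2 was at 0 in all 4 libraries. By edgeR none of the 8, 2, 8, 6, 10, 5, 5 and 3 tested genes of the stem cell, neuron, glia, smooth muscle, chondrocyte, epithelial, endothelial and endoderm lists was called. At an unadjusted p under 0.05, 1 smooth muscle, 2 chondrocyte and 2 epithelial genes passed, and DESeq2 called 0. With the loess offset 1 stem cell marker was called higher. Neuroectoderm markers summed to 40.5 and 46.1 against 57.9 and 61.0 CPM, and 1 of 4 was lower, HESX1, through a peak shared with APPL1 (16.3 and 23.8 against 32.1 and 35.1 CPM, -0.71, FDR 0.0433). That call was lost in DESeq2, under library-size scaling and without MSX1FNV replicate 1 or WT replicate 1, and the part of such cells in the results was not tested. In these bulk samples fewer cells of a type and less mark per cell cannot be told apart.

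The genes with the most differing peaks were named for that count, which is a description. Over all tested peaks above the median level, 3.55% were higher and 6.39% lower. Counting called peaks above the median level by the nearest protein-coding start site, NR2F1 had 12 higher peaks, NUAK1 and MSI2 8 each, and ETS1 and IRF8 7 each. ADGRL2 had 15 lower peaks, BMPR1B 14, TFAP2B 13, and FOXP1 and IRX3 12 each. The first 5 genes had 113, 43, 87, 88 and 27 tested peaks at any level, and the others 127, 62, 52, 56 and 50. Those totals include peaks below the median level, so they give no shares to set beside 3.55% and 6.39%. Counted at any level, 10 peaks were higher at NUAK1 and 15 lower at BMPR1B. Calls in the other direction numbered 1 at NR2F1, ADGRL2 and FOXP1, 2 at BMPR1B and 0 at the other 6 genes.

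The loci of SHOX2, DLX1, PAX3 and others were looked at after their values were seen, with peaks of any level counted. Over all tested peaks of any level 2.10% were higher and 3.40% lower. All 10 tested peaks of SHOX2 were below 0, with a median of -3.17, and 7 were called. All 9 tested peaks of DLX1, a homeobox gene of the pharyngeal arches, were above 0, with a median of 1.89, and 6 were called. The strongest DLX1 element by level, in an intron of METAP1D 31869 bp upstream (chr2:172052268-172053473), stood at 49.9 and 57.2 CPM in MSX1FNV and 19.8 and 24.2 CPM in WT (1.30, SE 0.17, FDR 1.45e-04), and it was called without WT replicate 2. At PAX3 9 of 36 peaks were lower and 1 was higher, at TBX2 10 of 32 were lower, and at TFAP2B 14 of 52. At TBX2 the called peaks lay at -9742 to 12002 bp from the start site, where negative is upstream. At IRX3, an Iroquois homeobox gene, 13 of 50 peaks were lower, among them a coding-exon peak (4.52 and 4.05 against 28.3 and 23.9 CPM, -2.60, SE 0.26, FDR 1.08e-05). At ID3 a peak 3212 bp downstream stood at 19.5 and 34.2 against 3.76 and 6.44 CPM (2.45), and at TWIST1 a peak 1508 bp upstream stood at 28.7 and 30.0 against 7.52 and 9.50 CPM (1.81), while the start-site peaks of ID3 and TWIST1 were not called. Both of these elements were called without WT replicate 2.

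**Figure D3:**
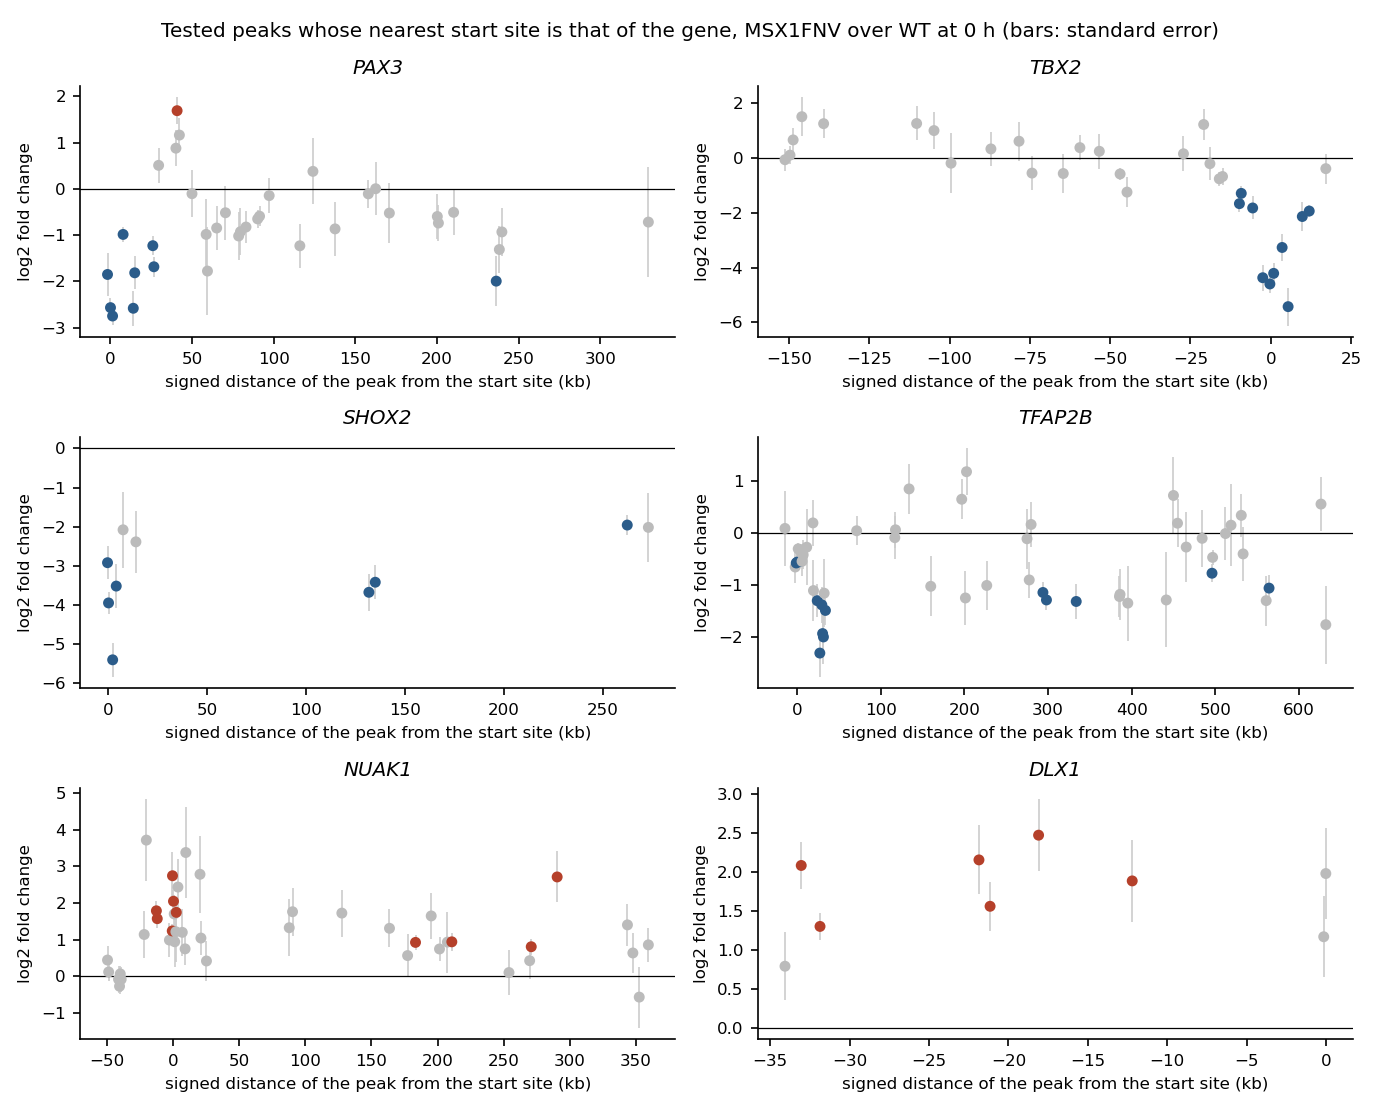
Log2 fold change of MSX1FNV over WT at 0 h (y axis, bars are standard errors) of every tested peak whose nearest start site is that of the gene, by signed distance from that start site in kb (x axis, positive is downstream). Called peaks are red (higher) or blue (lower) and the others grey. All 10 SHOX2 peaks lie below 0 and all 9 DLX1 peaks above it, while the lower TBX2 peaks sit close to the start site.

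A pair of histone genes on chromosome 6 and CYP1A1, also picked after their values were seen, were among the high-level peaks that were lower. At H4C13 MSX1FNV stood at 6.15 and 9.30 CPM and WT at 56.6 and 51.6 CPM (-2.76, SE 0.21, FDR 4.97e-07), and at H3C11 it stood at 6.87 and 6.2 against 40.3 and 34.6 CPM (-2.52). At CYP1A1, a cytochrome P450 induced by the aryl hydrocarbon receptor, it stood at 21.1 and 15.5 against 63.3 and 65.0 CPM (-1.82, SE 0.17, FDR 5.02e-06). The H4C13 peak also lies at the start of H3C11, and it stood at 102 and 23.2 CPM in the 2 ALX1FV libraries, which differed from each other.

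The smallest FDR of the comparison, 1.07e-13, belonged to an intergenic peak in the pericentromere of chromosome 3 (chr3:93470331-93470831, GC content 23.6%), 503056 bp from the nearest start, that of PROS1. It stood at 37.2 and 32.4 CPM in MSX1FNV and 434 and 418 CPM in WT (-3.61, SE 0.11). It stood at 459 and 396 CPM in TWIST1FV, which also had the mouse spike-in, and at 51.7 and 50.4 CPM in ALX1FV, 45.0 and 32.0 CPM in ALX1FV ALX4- and 42.8 and 54.0 CPM in PRRX1FV, which had none. Every library with the spike-in was high and every one without it low, and the part of mouse reads in this and other peaks was not tested.

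Lower peaks were mostly bound by TWIST1 in WT cells. Peaks overlapping a TWIST1 peak found in both WT replicates made up 34.6% of all tested peaks, 35.5% of higher peaks (802) and 81.8% of lower peaks (2993). For the crest factor AP2a the shares were 16.2%, 14.1% and 30.4%. Of peaks bound by both factors 10.4% were lower and 2.26% higher, and of peaks bound by neither 0.711% were lower and 2.17% higher. TWIST1-bound peaks also carried more H3K27ac, so the shares were split by level. In the highest of 5 groups of level, 15.5% of 13022 bound and 3.28% of 8531 unbound peaks were lower, and in the lowest group 0.427% and 0.172%. With an offset for level, 79.0% of lower peaks and 44.9% of higher peaks were bound. TWIST1 binding was measured in WT and not in MSX1FNV. Start-site peaks made up 16.4% of all tested peaks, 5.84% of higher and 17.8% of lower peaks.

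**Figure D4:**
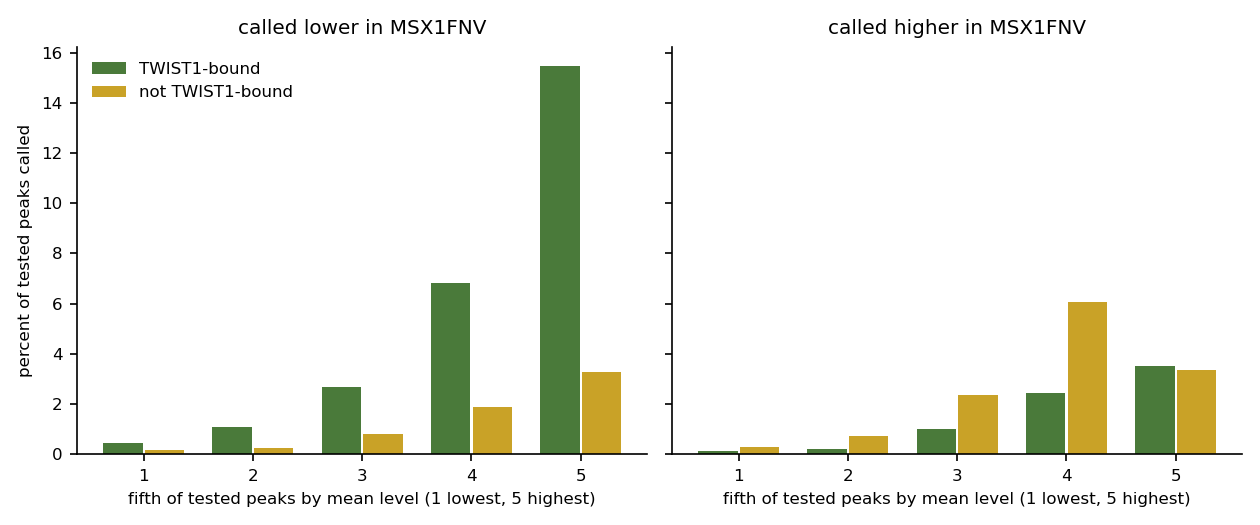
Percent of tested peaks called lower (left) or higher (right) in MSX1FNV (y axis, from 0) in 5 equal groups of mean level over the 4 libraries (x axis), for peaks bound by TWIST1 in WT cells (green) and the rest (yellow). Lower calls reach 15.5% of bound peaks and 3.28% of unbound peaks in the group of highest level.

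The signal itself was spread over more peaks in MSX1FNV than in WT. The 10000 highest peaks held 46.4% and 47.4% of a library's counts in MSX1FNV and 49.8% and 50.0% in WT, and peaks bound by neither TWIST1 nor AP2a held 24.9% and 25.6% against 21.7% and 21.9%. MSX1FNV and WT did not overlap in either share, but other lines lay near MSX1FNV. The first share was 46.4% and 46.9% in PRRX1FV and 47.8% and 46.3% in ALX1FV ALX4-. It was 47.6% and 48.8% in ALX1FV and 49.6% and 49.8% in TWIST1FV. The second share was 24.9% and 24.9%, 26.4% and 26.9%, 23.9% and 22.9%, and 21.0% and 22.0% in the same order. Whether immunoprecipitation efficiency moved with the line was not tested. The median level of the lower peaks was 10.8 and 8.34 CPM in MSX1FNV, 10.0 and 9.80 CPM in PRRX1FV, 15.5 and 12.8 CPM in ALX1FV, 7.19 and 8.73 CPM in ALX1FV ALX4-, 21.0 and 17.7 CPM in TWIST1FV and 23.2 and 21.6 CPM in WT. That of the higher peaks was 9.40 and 11.2, 8.58 and 8.51, 6.33 and 7.46, 9.84 and 9.42, 4.74 and 4.87, and 3.51 and 3.60 CPM in the same order of lines. MSX1FNV and WT were used to choose these peaks and the other lines were not, so the levels are a description. The lines with the spike-in (WT and TWIST1FV) and those without did not overlap in either median, and the part of the spike-in was not tested.

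MSX1 was mapped with the V5 antibody at 39 of the differing peaks. That antibody gave 50 and 278 distinct peak intervals in the MSX1FNV replicates. An interval in either replicate was enough, and 290 tested ATAC peaks overlapped one. Of these, 11 (3.79%) were higher and 28 (9.66%) lower, beside 2.10% and 3.40% of all tested peaks. V5-bound peaks lay at a high level, with a median of 5.11 log2 CPM, and in the highest of 5 groups of level 3.46% of tested peaks were higher and 10.6% lower, close to the V5 shares. The lower one with the smallest FDR was nearest to TNFRSF11B, which encodes osteoprotegerin (47.7 and 37.2 against 109 and 102 CPM, -1.31, SE 0.14, FDR 1.81e-05). An intronic NUAK1 peak (18.8 and 25.4 against 6.26 and 6.74 CPM, 1.79) and one near ETS1 (20.6 and 14.5 against 3.76 and 3.98 CPM, 2.17, FDR 2.42e-04) were higher. CPZ, a carboxypeptidase, had an element at 54.2 and 52.1 against 17.0 and 26.0 CPM (1.32, FDR 2.93e-04). TNFRSF11B, CPZ and TNR (0.88) were the 3 of 39 that were called without WT replicate 2. TNR was lost without WT replicate 1 (0.52) and in DESeq2 (FDR 0.165).

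The libraries at 3 h and 24 h of dTAGV-1 were not used to call peaks at 0 h, though they share line, clone and batch with it. At 3 h, 2338 of 106695 tested peaks (2.19%) were higher and 3223 (3.02%) lower. At 24 h, 3469 of 104133 (3.33%) were higher and 4930 (4.73%) lower. Of the 2260 peaks higher at 0 h, 1117 (49.4%) were called higher at 3 h and 1313 (58.1%) at 24 h, which are 47.8% and 37.8% of the calls at those times. Of the 3661 lower peaks, 2142 (58.5%) and 2604 (71.1%) were called lower again, which are 66.5% and 52.8% of the calls then. No peak was called in the opposite direction. PAX3 was -2.29 and -2.64 at 3 h and 24 h, the SHOX2 start site -3.85 and -4.13, the TBX2 start site -4.54 and -4.64 and ZIC1 3.07 and 3.20, and all were called. Some large values at 0 h were smaller later: HPSE2 was -4.74 and -4.67, and MDFIC2 was 1.62 at 3 h (FDR 0.184) and 3.53 at 24 h.

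**Figure D5:**
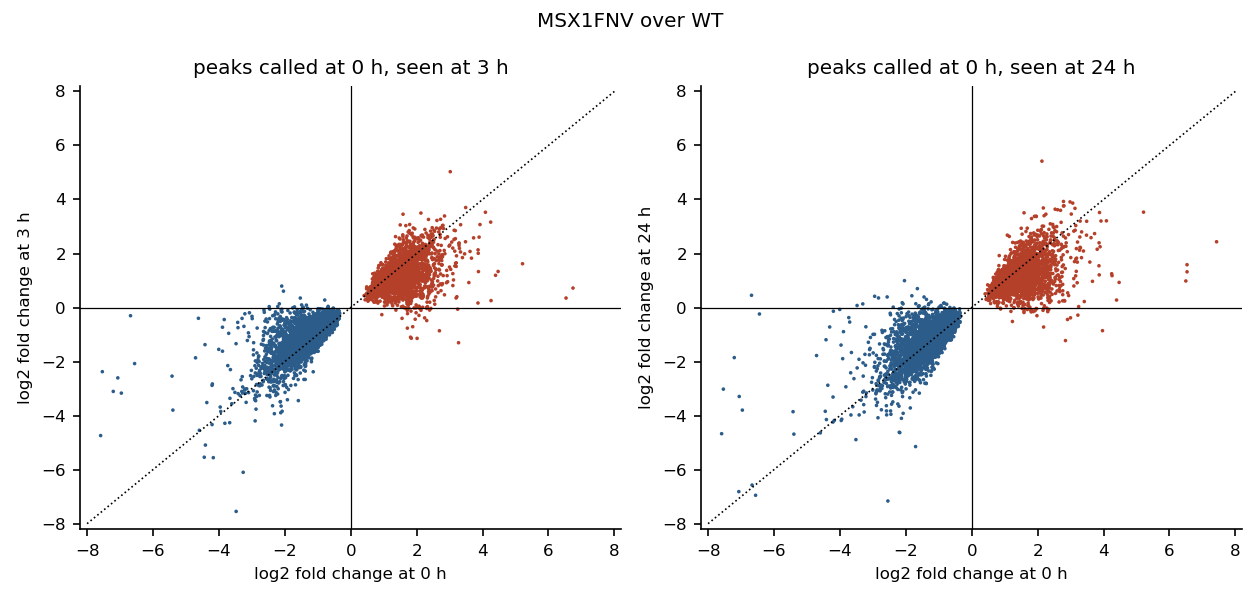
Log2 fold change of MSX1FNV over WT at 3 h (left) and 24 h (right) of dTAGV-1 (y axes) against that at 0 h (x axes) for peaks called at 0 h, higher in red and lower in blue, with the line of equal values dotted. Of the higher peaks 2175 of 2206 tested at 3 h kept their sign, and of the lower peaks 3624 of 3637.

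The difference between the lines moved with degradation at 2 of 142957 peaks (0.00140%), both upwards, and at 0 (0.00%) downwards. At an unadjusted p under 0.05, 2353 and 2989 peaks passed, and DESeq2 called 2. Both calls were lost without MSX1FNV 0 h replicate 2, MSX1FNV 24 h replicate 1, WT 0 h replicate 1 or 2, or WT 24 h replicate 2, and 1 was left without MSX1FNV 24 h replicate 2 or WT 24 h replicate 1. One of them, a V5- and TWIST1-bound peak in an intron of ADTRP, went from 7.59 and 7.51 CPM at 0 h to 41.5 and 34.0 CPM at 24 h in MSX1FNV and from 5.51 and 5.21 to 5.76 and 2.81 CPM in WT. At 0 h the ADTRP peak was not called (0.50).

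Against the mean of ALX1FV, PRRX1FV and TWIST1FV at 0 h, 3 of the other lines with a degradable factor (ALX1FV ALX4- was not used in this fit), fewer peaks were called: 38 of 131713 (0.0289%) were higher in MSX1FNV and 39 (0.0296%) lower. This comparison shares its MSX1FNV libraries with the one against WT and draws on 6 other libraries. Each line was its own group in the fit, so the test used the spread between replicates of a line and not that between lines. The SHOX2 start-site peak stood at 11.1 and 17.4 CPM in TWIST1FV, 22.2 and 6.31 CPM in ALX1FV and 0.528 and 1.80 CPM in PRRX1FV, and MSX1FNV was -1.72 against their mean (FDR 0.239). The TBX2 start-site peak was -1.90 (FDR 0.378), with 0.792 and 1.29 CPM in PRRX1FV. PAX3 was -1.53 (FDR 0.00547), with 31.7 and 29.0, 36.3 and 19.8, and 15.5 and 16.9 CPM in the 3 lines. ZNF502 was -4.37 (FDR 0.00113): all 6 other libraries stood between 3.00 and 8.72 CPM, near WT at 6.64 and 6.44 CPM, and MSX1FNV at 0.362 and 0.238 CPM. ZIC1 was 1.53 (FDR 0.329). The HPSE2 peak with the largest loss was -4.96 (FDR 0.157). It stood at 2.37 and 4.14 CPM in TWIST1FV, 8.33 and 0 CPM in ALX1FV and 1.06 and 2.06 CPM in PRRX1FV. ATP1A4 was 1.84 (FDR 0.00357), with 3.56 and 1.71, 4.67 and 6.60, and 11.4 and 17.3 CPM in the same order of lines. Of the 77 calls against these lines, 35 stood without MSX1FNV replicate 1 and 2 without replicate 2. PAX3 was called in neither case (-1.28 and -1.92, FDR 0.109 and 0.153), and ZNF502 was lost without replicate 2 (-4.10, FDR 0.412).

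By position, the median log2 fold change over the tested peaks of a chromosome ran from -0.07 (chromosome 6), -0.05 (X) and -0.03 (4) to 0.06 (15), 0.09 (22) and 0.13 (21). The 3 lowest turned positive under library-size scaling (0.04, 0.06 and 0.08). On chromosome 6 5.07% of 6231 tested peaks were lower and 1.40% higher, beside 3.40% and 2.10% of all tested peaks. In 580 windows of 5 Mb with at least 20 tested peaks the median ran from -0.38 to 0.38 (SD 0.12). The lowest was on chromosome 10 from 105000001 to 110000000, around SORCS1 and SORCS3, with 11 lower and 0 higher of 100 peaks and medians of -0.38, -0.49 and -0.39 at 0, 3 and 24 h. The others of the 5 most extreme windows were positive, and on chromosome 20 from 20000001 to 25000000, around SSTR4 and FOXA2, 8 of 104 peaks were higher and 0 lower, with medians of 0.36, 0.66 and 0.54. The windows on chromosomes 4 (from 30000001), 15 (from 20000001) and 21 (from 15000001) had medians of 0.38, 0.37 and 0.36 with at most 3 higher calls each.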

How the data were processed

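H3K27ac was measured by ChIP-seq in 2 libraries each of MSX1FNV and WT at 0 h, and the 3 h and 24 h libraries of both lines and the 0 h libraries of other lines served for comparison. The authors deposited raw counts per merged ATAC peak, 1 table per line. Per the submitters' processing notes, Bowtie2 2.4.1, SAMtools 1.10, MACS2 2.2.7.1 and deepTools 3.5.0 were used, and the labels name hg38. The deposited V5, TWIST1 and AP2a peak lists give each peak's score, its fold enrichment ratio and −log10 p and q values, called per replicate, and here their intervals were used for overlap. TWIST1 peaks had to be in both replicates. AP2a peaks had to be in both AP2a libraries, which were made with antibodies of different makers in cells labelled only hCNCC. For V5 a peak in either replicate was enough.

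Peaks with enough counts were kept with edgeR 4.0.16 (R 4.3.3), scaled by TMM and tested with the quasi-likelihood test at a Benjamini-Hochberg FDR of 0.05. This scaling rests on the peaks themselves, so a global change would not be seen. DESeq2 1.42.0 (whose NA adjusted p-values stayed NA), limma 3.58.1 for a loess offset against level, other scalings, a GC and width offset, halved counts and left-out libraries were alternatives, and those that recompute overlaps and lists on other fits were added after seeing the data. The fits were tested on simulated data. Overlaps used bedtools 2.31.1 and genes GENCODE 44, a start-site peak being one within 500 bp of a start. Low-count ratios have exact 95% intervals (scipy 1.17.1) that cover counting error only.

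The members and gene lists were chosen with earlier results of these data known. Some rules named only called peaks above the median level whose groups did not overlap. These gave, per direction, the 10 with the largest fold, 6 start sites and the 5 genes with the most called peaks. Named at any level were called V5-bound peaks, up to 4 called start sites per list and the MSX1 start-site peak, which was not called. Peaks called for the change over time, and some picked after their values were seen, were added. Replicate numbers did not pair the samples. Some named items are not reported here.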

Additional observations from a re-analysis of the deposited data

Results flagged for a closer look

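The difference between MSX1FNV and WT changed from 0 h to 24 h of dTAGV-1 at 2 peaks, by a test of the change itself (edgeR's quasi-likelihood test over all peaks). In the ADTRP intron the difference grew by 2.61 on the log2 scale (FDR 0.00915).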

How the results depend on the processing

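The numbers of calls moved with the setting, and no peak called at 0 h changed sign in a setting that tested it (234 were not tested with halved counts). In every such peak the groups did not overlap, and the settings refit the same counts. A change of sign was therefore hardly possible, and its absence says little about direction. At 0 h, against 5921 calls, DESeq2 gave 3816, halved counts 9106 and a test against 1.5-fold 1213, and leaving out 1 library gave 218 (WT replicate 2) to 8401. At 3 h no filter on low counts gave 0 calls, halved counts 9321, and left-out libraries 3519 to 9387. At 24 h DESeq2 gave 4720 and left-out libraries 4939 to 10100. Against the other lines DESeq2 gave 161 and left-out libraries 2 to 68, and for the change from 0 h to 24 h left-out libraries gave 0 to 3. The causes were not tested.

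Replicate numbers did not pair the samples: deviations from the group means correlated at 0.0210, 0.0239 and 0.0190 at 0, 3 and 24 h. With a replicate block there were 9365 calls at 0 h, 8508 at 3 h (9228 with the GC and width offset) and 4 for the change over time.

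The TWIST1-bound share of higher peaks was 32.5% by summit, 38.9% at an FDR of 0.01, 44.9% with the loess offset, 38.1% with the GC and width offset, 42.8% by DESeq2 and 50.0% without WT replicate 2. For lower peaks it was 73.9% by summit, 85.8% at an FDR of 0.01, 79.0% with the loess offset, 86.3% by DESeq2 and 83.3% without WT replicate 2. Over whole peaks the composite motif was in 0.575% of higher and 0.574% of lower peaks. MSX1 turned to 0.0131 with the GC and width offset and 0.0327 with the replicate block added, and the medians of chromosomes 6, X and 4 turned to 0.0416, 0.0617 and 0.0817 under library-size scaling. With 2 libraries a group, leaving 1 out assumes that the lone library varies like the other group, and peaks with few counts limit what could be called.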
